A study of Mus musculus with 20 samples.

Results

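Donor CD8+ effector T cells recovered from 2 mucosal sites, the lung and the small intestine, were compared with the same donor cells recovered from the liver and the peripheral blood of mice with acute graft-versus-host disease. The mucosal side holds 9 arrays (lung 1 to 5 and small intestine 1 to 4) and the other side 9 arrays (liver 1 to 4 and blood 1 to 5), 18 of the 20 arrays of the study. The arrays were chosen by measured values in part, since liver 5 and small intestine 5 were left out for their Paneth cell markers. Markers of Paneth cells, secretory cells of the small intestinal crypt, were high on the array labelled liver 5 and low on the array labelled small intestine 5. Averaged over the 10 Paneth markers tested, the level was 2.04 on liver 5 against -2.74 to -1.69 on the 9 other arrays of liver and blood. It was -3.06 on small intestine 5 against 3.60, 4.74, 0.32 and 5.63 on small intestine 1 to 4. Levels here and below are log2 processed signal minus the log2 75th percentile of the array, so that 0 is the brightness of the probe at that percentile.

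All 4 groups share the same transplant. Recipients were C57Bl/6 m-act OVA female mice of 8 to 16 weeks, which carry an ovalbumin transgene under the CAG promoter, a promoter active in most tissues. They received 11 Gy of total body irradiation as split doses of 5.5 Gy, and then 3000000 bone marrow cells and 15000000 splenocytes. The transplant is called allogeneic in the labels, and donor and recipient were both C57Bl/6. Graft CD8+ T cells came from OT-I donors, whose transgenic receptor recognises an ovalbumin peptide, so the T cells are of 1 specificity. The graft T cells carried CD45.1, and the recipients and all other graft cells carried CD45.2. On day 4 the cells were recovered by magnetic positive selection for CD45.1, and their RNA was amplified over repeated rounds before labelling. The labels do not say which animal an array came from, and a p-value therefore covers only the array-to-array spread, which may be technical.

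As background, an activated CD8+ T cell divides many times in lymphoid tissue, enters the blood and then leaves it into target organs. Integrins, selectin ligands and chemokine receptors guide that exit, while S1pr1, Klf2 and Ccr7 belong to cells that circulate between blood and lymphoid organs. Dividing cells express the genes of DNA synthesis and, later in the cycle, those of the mitotic spindle, many of them through promoters that hold a cell cycle genes homology region (CHR) and CCAAT boxes. The lung and the gut are lined by epithelium in contact with the outside, whereas T cells in the liver lie largely in blood-filled sinusoids.

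The 75th percentile signal ran from 829.8 to 2602.8 over the 18 arrays, and 22.6% to 35.5% of an array's probes were well above background. T cell identity was present on every array. The mean of 18 tested genes of the T cell receptor complex, CD8 and early T cell signalling was 4.47 to 4.99 on the liver and blood arrays, 4.59, 4.48, 4.73, 4.08 and 4.64 on lung 1 to 5, and 4.09, 3.45, 5.07 and 3.15 on small intestine 1 to 4. Small intestine 1, 2 and 4 and lung 4 thus lay below the range of the other side. Cd3e, a chain of the receptor complex, lay between 4.76 and 6.60 on the mucosal arrays and between 5.86 and 6.56 on the others. The median difference over all 8243 genes tested was -0.43 (log2, mucosal minus liver and blood), so every list below is read against that shift. Since whole RNA fractions were measured, fewer cells of a type and less RNA per cell cannot be told apart.

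Of the 8243 genes, 1592 (19.3%) were higher and 3163 (38.4%) lower at the mucosal sites at an adjusted p under 0.05, 4755 (57.7%) in all. A size of at least 1 on the log2 scale was reached by 332 of the higher and 1198 of the lower genes. Full separation of the 9 and 9 arrays was rare, with 9 higher genes (0.109%) and 78 lower genes (0.946%). The share called rests on the 2 arrays left out. With all 20 arrays grouped as labelled, 244 of 8056 genes (3.03%) were higher and 1715 (21.3%) lower, 1959 genes that the 18 arrays had called as well. The 2 arrays were left out for marker levels and the grouping of the sites was chosen with results of these data known, so p-values below describe these 18 arrays, and the adjusted p over all 20 is given beside many of them. Of the genes given a p without it, Btla, Tigit, St3gal6, Il1rl1, Xaf1, Cd83, Hsf1, Hif1a and Klra1 were not called over all 20. When the 20 arrays were also scaled to the probes detected above background on every array, 0 genes were higher and 1 lower in the limma fit, with 3920 genes at an unadjusted p under 0.05. The scaling of the 18 arrays also set the counts. Scaled to the median instead of the 75th percentile, 216 genes were higher and 4268 lower, and with no scaling 168 were higher and 4719 lower. The count of higher genes fell with both scalings, and that of lower genes grew.

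Inside each pair of sites fewer genes were called. Between small intestine and lung 213 genes (2.58%) were called, 66 (0.801%) higher and 147 (1.78%) lower in small intestine, and between liver and blood 0 by the same limma fit, with 163 genes at an unadjusted p under 0.05 and 3 called with a replicate block or with array weights. Of the calls, 1571 higher and 3116 lower genes had the same sign in all 4 comparisons of a mucosal with another site. Those comparisons share arrays and are given side by side. Small intestine against blood gave 424 higher (5.14%) and 1856 lower genes (22.5%), in all 27.7%. Small intestine against liver gave 171 (2.07%) and 1307 (15.9%), in all 17.9%, lung against blood 80 (0.971%) and 115 (1.40%), in all 2.37%, and lung against liver 19 (0.230%) and 3 (0.0364%), in all 0.267%. The median over all genes was -0.44, -0.45, -0.33 and -0.33 in the same order.

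Genes of mitosis were the list that stood lowest. Of 55 tested members 47 were lower at the mucosal sites and 0 higher, against 38.4% and 19.3% of all genes, and the median difference was -1.26 against -0.43 over all genes. With all 20 arrays 40 of 53 members were lower, and 1 of 53 when these 20 arrays were also rescaled in that way, although the median was still -0.99. The level of the list, averaged over its members, was 1.76 to 2.70 on the liver and blood arrays, 2.20, 1.84, 1.47, 0.69 and 1.21 on lung 1 to 5, and 0.95, 0.56, 0.76 and 0.39 on small intestine 1 to 4. All 4 small intestine arrays and 3 of the 5 lung arrays lay below every liver and blood array, whereas lung 1 and lung 2 lay inside their range. Slides 1 to 4 each carried all sites, and the median of the list was below 0 on each of these 4 slides, at -0.91, -1.42, -0.98 and -1.48 against -0.15, -0.42, -0.16 and -0.82 over all genes. The level of the list also ran with array brightness, with a correlation of 0.67 over the 18 arrays and 0.58 within sites to the log2 75th percentile signal, as a description of arrays that share slides. The mucosal arrays were dimmer by -0.50 (log2), and the part of brightness in the difference was not tested. Without any scaling the median of the list was -1.77, against -0.93 over all genes. There 53 of 55 members were lower, and so were 4719 of all 8243 genes.

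Ccnb1, the cyclin that drives entry into mitosis, was 2.75, 2.48, 2.85, 0.65 and 1.82 on lung 1 to 5 and 1.21, -0.14, 1.07 and 1.63 on small intestine 1 to 4. On liver 1 to 4 it was 3.10, 3.08, 2.76 and 3.56, and on blood 1 to 5 it was 3.74, 3.68, 3.44, 2.80 and 4.13. Lung 3 alone reached past the lowest liver array, and Ccnb1 was lower by a log2 difference of -1.81 ± 0.30 (SE), adjusted p = 0.001 in the limma fit and 0.026 over all 20 arrays. Foxm1, the transcription factor of the mitotic program, ran from -2.85 to 0.81 (median -2.34) on the mucosal arrays and from 0.03 to 1.93 (median 1.09) on the others. It was well above background on 2 of 9 mucosal arrays, lung 1 and lung 2 being the highest, and on 9 of 9 others, with a difference of -2.91 ± 0.38 (adjusted p = 0.00021, 0.026 over all 20). Cdca2, a chromatin-bound phosphatase subunit of mitotic exit, lay between -2.83 and 1.22 against 1.17 and 2.58, a difference of -2.70 ± 0.30 (adjusted p = 3.8e-05, 0.026 over all 20). Stil, a centriole assembly factor, did not overlap between the sides, with -3.19 to -2.21 on the mucosal arrays, none of them well above background, and -1.10 to 0.61 on the others. Its level at liver and blood was at least 1.15-fold higher, a bound set by the background of the mucosal arrays (means over each side, the dim side at the lowest signal well above background or the probe's own). No p is given here or below for a gene at background on every array of a side or site compared, since it passed the filter on low values through the other alone. Some tested genes were well above background on too few arrays of 1 side or site to pass the filter there. They entered through the other, brighter one, so their p-values lean towards that difference. Among them are Foxm1 here, Prf1, Mettl18, Mrnip and Tstd2 below, and the higher genes Rab15 and Dgat2. Higher genes that did not pass at liver or blood include Trf, Siglecf, Vwf, Mmrn2, Sparc, H2-Ab1, H2-Eb1, Ccl6, Ccl9, Tgfbi, Anxa4 and Pfkfb4. Depdc1b, which is expressed in dividing cells, was also apart on all arrays, at -0.40 to 1.99 against 2.22 to 2.99 (difference -1.85 ± 0.17, adjusted p = 9.7e-06, 0.026 over all 20). Mki67, the proliferation marker, did not pass the test (-1.05 ± 0.71, adjusted p = 0.20). Its values split by slide, being 3.91 to 5.91 on the 8 arrays of slides 1 and 2 and 1.19 to 3.51 on the other 10. Within slides the difference was -0.93, -1.30, -0.98 and -1.21, and with the slide as a block it was called lower (adjusted p = 0.0042).

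**Figure D1:**
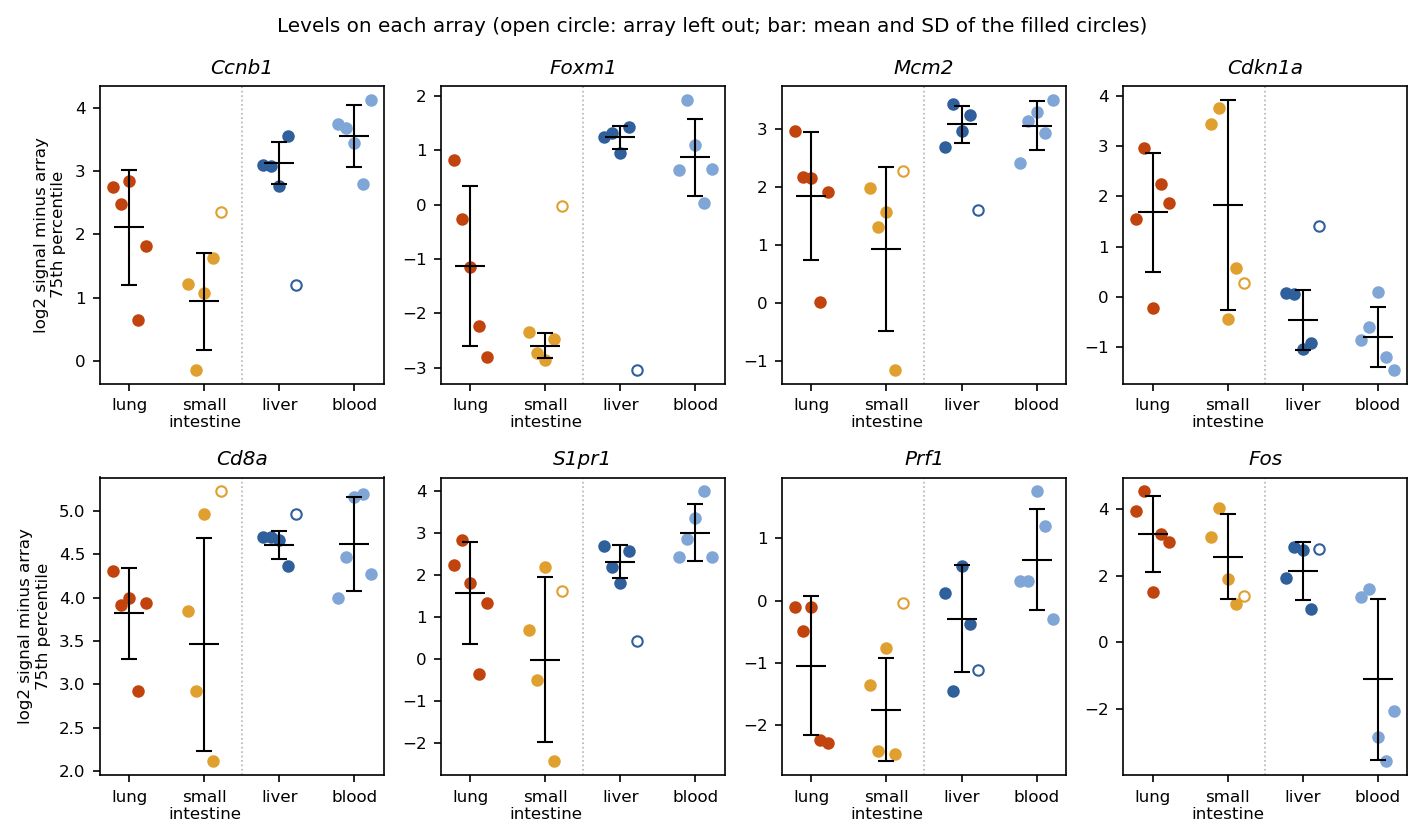
Log2 signal minus the array's 75th percentile (y axis) of 8 genes on each array, by site (x axis); filled circles are the 18 arrays compared, open circles the 2 arrays left out, and black bars the mean and SD of the filled circles. Ccnb1, Foxm1, Mcm2, S1pr1 and Prf1 sit lower and Cdkn1a and Fos higher at lung and small intestine, and liver 5 lies below every other liver array for Ccnb1, Foxm1, Mcm2 and S1pr1.

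DNA replication genes followed in the same direction with smaller differences. Of 39 tested, 32 were lower and 2 higher, against 38.4% and 19.3% of all genes, with a median of -0.88. Over all 20 arrays 29 were lower. Mcm2, a subunit of the replicative helicase, was 2.96, 2.16, 2.15, 0.01 and 1.90 on lung 1 to 5, 1.98, 1.31, 1.57 and -1.16 on small intestine 1 to 4, and 2.40 to 3.50 on the liver and blood arrays. Only lung 1 lay above the lowest of those, and the difference was -1.68 ± 0.40 (adjusted p = 0.0058, 0.031 over all 20). Mcm10, which loads the polymerase, lay at a median of 0.73 against 2.33 (difference -1.62 ± 0.37, adjusted p = 0.0051). Pole2, a subunit of the leading strand polymerase, was not well above background on any mucosal array and on 6 of 9 others, with a median of -2.32 against -0.53. The 2 higher members were Chaf1a and Lig1.

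Among G1 cyclins and inhibitors of cyclin-dependent kinases 12 of 14 tested genes were lower and 2 higher, with a median of -0.97. Over all genes 38.4% were lower and 19.3% higher. Ccne1, the cyclin of the G1 to S transition, was lower by -1.73 ± 0.37 (adjusted p = 0.0034, 0.037 over all 20) and Cdkn2c, a G1 kinase inhibitor, by -2.20 ± 0.37 (adjusted p = 0.0011, 0.028 over all 20). Cdkn1a, the p21 inhibitor that arrests the cycle, went the other way. It was 1.54, 2.97, -0.22, 2.25 and 1.86 on lung 1 to 5 and 3.45, 3.77, -0.45 and 0.58 on small intestine 1 to 4, against -1.04 to 0.07 on the liver arrays and -1.46 to 0.09 on the blood arrays. Lung 3 and small intestine 3 were the only mucosal arrays inside the range of the other side, and the difference was 2.40 ± 0.53 (adjusted p = 0.0041, 0.026 over all 20). Within slides it was 2.90, 3.65, 0.14 and 2.48.

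The promoters of the mitosis genes shared letters that the comparison did not use. RefSeq promoter sequences (GRCm38.p6, 300 bases around the start) were matched by symbol for 62 members of the mitosis list. The CHR letters TTTGAA, searched on both strands as TTTGAA or TTCAAA, were in 43 of them (69.4%) against 20.2% of all 27025 genes with a promoter and 15.2% of the 6621 tested genes with one. CCAAT (or ATTGG) was in 72.6% against 41.1% and 42.8%. For 39 replication genes the CHR letters were in 15.4% and the E2F letters GGCGGGAA (or TTCCCGCC) in 20.5%, against 2.5% and 4.9%. Among the 39 mitosis members called lower that had a promoter, the CHR letters were in 26 (66.7%), near the share of all 62. The letters thus belong to the list as chosen and did not set its lower members apart. A match is a description of letters, not of a bound site. Given 5′ to 3′ with these letters in capitals are the promoters of the 3 mitosis genes lowered most among those with CHR letters and 1 promoter, and of the replication gene chosen likewise for the E2F letters. They are Smc2, a condensin subunit that compacts chromosomes (chr4:52438971-52439270, plus strand), Haspin, the histone H3 kinase of mitosis (chr11:73138245-73138544, minus strand), Hmmr, a spindle protein (chr11:40733388-40733687, minus strand), and Rrm1, the large subunit of the enzyme that makes deoxynucleotides (chr7:102441445-102441744, plus strand).
Smc2: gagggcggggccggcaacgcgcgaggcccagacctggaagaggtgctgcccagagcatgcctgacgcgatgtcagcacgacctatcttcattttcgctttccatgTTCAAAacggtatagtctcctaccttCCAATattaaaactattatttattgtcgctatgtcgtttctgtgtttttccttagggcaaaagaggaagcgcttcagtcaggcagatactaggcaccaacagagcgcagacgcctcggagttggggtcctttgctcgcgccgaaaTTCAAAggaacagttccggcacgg
Haspin: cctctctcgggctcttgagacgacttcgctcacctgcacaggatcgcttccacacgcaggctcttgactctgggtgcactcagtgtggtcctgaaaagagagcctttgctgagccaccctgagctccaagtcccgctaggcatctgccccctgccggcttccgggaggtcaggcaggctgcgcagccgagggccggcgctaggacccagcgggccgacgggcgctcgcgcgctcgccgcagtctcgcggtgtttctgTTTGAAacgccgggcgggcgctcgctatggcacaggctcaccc
Hmmr: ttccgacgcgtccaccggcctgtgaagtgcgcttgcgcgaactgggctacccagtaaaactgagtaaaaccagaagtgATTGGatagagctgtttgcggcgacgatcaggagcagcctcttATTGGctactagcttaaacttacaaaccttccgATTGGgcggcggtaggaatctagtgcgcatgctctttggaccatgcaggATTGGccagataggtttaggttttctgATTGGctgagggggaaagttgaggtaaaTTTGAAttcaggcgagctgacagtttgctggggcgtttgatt
Rrm1: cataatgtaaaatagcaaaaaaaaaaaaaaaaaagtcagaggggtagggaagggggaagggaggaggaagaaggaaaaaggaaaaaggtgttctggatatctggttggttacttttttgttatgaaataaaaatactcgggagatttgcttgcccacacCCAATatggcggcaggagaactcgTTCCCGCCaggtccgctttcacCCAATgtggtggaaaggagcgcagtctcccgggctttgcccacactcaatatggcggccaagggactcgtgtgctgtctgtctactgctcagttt

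These 4 genes were lower on the mucosal side. Smc2 differed by -2.03 ± 0.50 (adjusted p = 0.0069, 0.04 over all 20), Haspin by -2.02 ± 0.33 (adjusted p = 0.00081, 0.026 over all 20), Hmmr by -1.98 ± 0.47 (adjusted p = 0.0058, 0.085 over all 20) and Rrm1 by -1.07 ± 0.18 (adjusted p = 0.0011, 0.026 over all 20). As site means, Hmmr was -0.49 on lung, -1.86 on small intestine, 0.95 on liver and 0.65 on blood.

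Markers of several other cell types were higher at the mucosal sites, where 19.3% of all genes were. Of 17 tested alveolar macrophage markers 14 were higher, with a median difference of 2.57, of 8 MHC class II genes 6 (2.69), of 10 monocyte and macrophage markers 5 (1.67), of 13 endothelial markers 11 (1.45), of 7 fibroblast and smooth muscle markers 5 (1.30) and of 6 markers of eosinophils, basophils and mast cells 5 (1.39). Platelet markers gave 6 of 7 (0.69), general epithelium 6 higher and 1 lower of 11 (0.67), lung epithelium 5 and 2 of 9 (0.55), dendritic cells 3 higher of 8 (0.76) and plasma cells 3 higher and 1 lower of 7 (0.50). Hepatocyte markers gave 2 higher and 2 lower of 6 (0.43), neutrophil markers 2 higher of 8 (0.05), NK cell markers 1 higher and 2 lower of 8 (-0.13), and the list of CD4, regulatory, gamma delta and innate lymphoid cells 3 higher and 2 lower of 13 (0.26). The 3 Kupffer cell markers tested had a median of 0.31 and did not pass. A marker passed the filter on low values through the sites where it was bright, so these counts lean towards higher. The level of the alveolar macrophage list was 2.77, 2.63, 4.91 and 4.01 on lung 1, 2, 4 and 5, -1.25 on lung 3 and -2.12 to -0.88 on the liver and blood arrays. The MHC class II list was 0.57 on lung 3 and 0.98 on small intestine 3, inside the range of -0.24 to 1.52 of the other side, and 3.20 to 4.83 on the other 7 mucosal arrays.

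Lung 3 and small intestine 3 stood low among the mucosal arrays for several of these lists, though not for all. On them the alveolar macrophage, monocyte and macrophage, MHC class II and endothelium lists lay at -1.25 and -1.35, 0.58 and 0.28, 0.57 and 0.98, and 0.78 and 0.38. The 2 macrophage lists were low on small intestine 4 too, at -1.31 and 0.48, where MHC class II was 3.45 and endothelium 1.32. The dendritic cell list was 3.57 on small intestine 3, the highest of the 18 arrays, and the list of CD4 and innate lymphoid cells 1.56 on lung 3, against at most 3.03 and 1.45 at liver and blood. The T cell identity list was 4.73 and 5.07 there, against 4.47 to 4.99 at liver and blood. The mitosis list was 1.47 and 0.76, below the lowest liver or blood array at 1.76, and Foxm1 was -1.15 and -2.85 against a lowest value of 0.03. Both arrays were dimmer than the lowest liver or blood array, with 75th percentile signals of 1221.8 and 839.5 against 1285.5. Small intestine 3 still carried Paneth and plasma cell transcripts, with 0.32 for the Paneth list and 4.52 for Jchain. The part of admixed transcripts in the lower T cell lists was not tested.

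Some markers of other cell types were shared by lung and small intestine. H2-Ab1, a class II antigen presentation chain, was 3.51, 4.11, -2.03, 5.62 and 5.46 on lung 1 to 5 and 6.28, 6.63, -2.62 and 4.45 on small intestine 1 to 4, and -3.50 to 0.37 at liver and blood. The difference was 5.46 ± 1.21 (adjusted p = 0.0041, 0.031 over all 20), and H2-Eb1 behaved alike (adjusted p = 0.0038). Mpeg1, the macrophage perforin, was not well above background on any liver or blood array and at least 5.34-fold higher on the mucosal side, and Clec4n, a myeloid lectin, at least 3.37-fold. Tyrobp, the adaptor of myeloid and NK receptors, differed by 2.61 ± 0.71 (adjusted p = 0.0099, 0.029 over all 20). Krt19, an epithelial keratin, was at least 10.2-fold higher and Pigr, the epithelial receptor that carries IgA across, was higher by 2.41 ± 0.47 (adjusted p = 0.0021). Sparc, a matrix protein of fibroblasts, rose by 2.83 ± 0.59 (adjusted p = 0.0032), Acta2, smooth muscle actin, by at least 1.54-fold, Ramp2, an endothelial receptor partner, by at least 2.28-fold and Mmrn2, an endothelial matrix protein, by 2.59 ± 0.67 (adjusted p = 0.0084). Vwf, of endothelium and platelets, differed by 2.41 ± 0.68 (adjusted p = 0.012), Kit, a receptor of mast cells, by at least 1.09-fold, and Blnk, a B cell adaptor, by 1.78 ± 0.57 (adjusted p = 0.018), while the B cell list as a whole had 1 higher and 1 lower of 5 genes, the lower being Cd37 (-0.90 ± 0.26, adjusted p = 0.014).

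Others stood out at 1 of the mucosal sites, while some of those named here were seen at both. Sftpc, surfactant protein C of alveolar type 2 cells, was 4.61, 6.98, -0.16, 5.33 and 4.52 on lung 1 to 5 and -0.69, -0.33, -0.31 and -0.40 on small intestine 1 to 4, with no small intestine, liver or blood array well above background. It was at least 25.4-fold lower in small intestine than in lung. The mean of the mucosal side, which joins both sites, was at least 7.23-fold above that of liver and blood, with 4 of 9 mucosal arrays well above background. Sftpd, another surfactant protein, was at least 6.25-fold lower in small intestine. Of the alveolar macrophage genes Chil3, a chitinase-like secreted protein, was at least 63.2-fold, Ear1 at least 14.0-fold, Krt79 at least 12.2-fold and Atp6v0d2, a proton pump subunit, at least 4.50-fold lower in small intestine than in lung. Chil3 was also high on liver 4, at 3.42. The Ear genes have near-identical copies, and a probe may read several of them. With that limit, Ear2 and Ear10 were at least 8.71-fold and 5.21-fold higher at the mucosal sites, being brightest on lung 4 (7.43 and 7.01) and also seen on small intestine 1 and 2. Rnase2a, of the same ribonuclease family, was at least 4.03-fold higher and Siglecf, the lectin of eosinophils and alveolar macrophages, higher by 3.06 ± 0.78 (adjusted p = 0.008). Fabp1, which binds fatty acids in gut and liver cells, was well above background on 4 lung arrays only and, as a small intestinal epithelium gene, is given without a test. Trf, transferrin, differed by 4.20 ± 1.10 (adjusted p = 0.0088). It was high on lung 1, 2, 4 and 5 and on small intestine 1 and 2, at 2.84 to 5.58. Trf and Siglecf were each well above background on 6 of 9 mucosal and 1 of 9 other arrays. Both passed the filter on low values through lung alone, so their p-values lean towards higher.

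Paneth cell and small intestinal epithelium genes are described without a test, since their levels led to the arrays left out. Defa29, an antimicrobial defensin of Paneth cells, was 5.70, 6.71, 2.15 and 6.79 on small intestine 1 to 4, -3.89 on small intestine 5, 4.64 on liver 5 and -3.53 to -1.96 on the other liver and blood arrays. Defa42 (5.99, 7.06, 2.59 and 7.33) and Defa40 (5.88, 6.93, 2.51 and 7.58) ran the same way on small intestine 1 to 4, and defensin probes may read several near-identical genes. Itln1, an intestinal lectin, was 5.70, 6.72, 1.89 and 7.14 there. Reg3g, an antibacterial lectin of gut epithelium, was 2.05, 3.62, -0.24 and 5.93, and Tff3, the goblet cell peptide, 1.46, 4.39, -2.73 and 4.63. Jchain, which joins IgA and IgM in plasma cells, was 5.72, 5.37, 4.52 and 2.43 on these arrays and 4.33 on liver 5. Lyz1, whose probe may also read Lyz2 of macrophages, was high on small intestine (4.64, 5.72, -0.06 and 6.66) and on lung 1, 2, 4 and 5 (3.65, 3.68, 6.08 and 5.92).

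Of 23 tested genes of circulating cells 13 (56.5%, against 38.4% of all genes) were lower and 1, Kcnab2, higher, with a median of -0.85, and 7 were lower over all 20 arrays. S1pr1, the receptor for exit from tissue, was 2.26, 2.84, 1.82, -0.34 and 1.35 on lung 1 to 5, 0.70, -0.48, 2.20 and -2.43 on small intestine 1 to 4, 2.69, 2.21, 1.82 and 2.59 on liver 1 to 4 and 2.43, 2.86, 3.36, 4.01 and 2.44 on blood 1 to 5. Small intestine 1, 2 and 4 and lung 4 and 5 lay below every liver and blood array, and the other mucosal arrays overlapped them. The difference was -1.88 ± 0.51 (adjusted p = 0.0097, 0.04 over all 20), and against liver alone the call was lost. Klf2, the factor that drives S1pr1, did not pass (-0.48 ± 0.29, adjusted p = 0.15), nor did Ccr7, the lymph node homing receptor (0.68 ± 0.36, adjusted p = 0.11). Tcf7, a factor of memory precursors, was lower (-1.10 ± 0.38, adjusted p = 0.025, 0.08 over all 20). Tlr1, a receptor for bacterial lipopeptide, was not well above background on any mucosal array and on 6 of 9 others, and the sides did not overlap (-3.30 to -2.02 against -2.01 to 0.24). Il18r1, a chain of the receptor for interleukin 18, fell by 1.92 ± 0.36 (adjusted p = 0.0017, 0.038 over all 20) and lay lower in small intestine than in lung (-2.25 ± 0.50, adjusted p = 0.023).

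Receptors and ligands that guide entry into tissue gave no common direction. Of 10 chemokine receptors tested 2 (20.0%) were lower and 1 (10.0%) higher, against 38.4% and 19.3% of all genes. Cxcr3, the receptor of inflamed tissue, ran from 1.77 to 6.03 against 4.77 to 6.02 and was lower (-1.26 ± 0.39, adjusted p = 0.016, 0.084 over all 20), the lowest values being 3.73, 1.77 and 2.54 on small intestine 1, 2 and 4. Ccr10 was lower by -1.76 ± 0.38 (adjusted p = 0.0037, 0.10 over all 20), and small intestine was below lung by -2.94 ± 0.54 (adjusted p = 0.0062). Ccr9, the gut homing receptor, was 1.86, 0.40, 2.37 and -0.06 on small intestine and -1.25 to 1.00 on lung, and did not pass (1.18 ± 0.59, adjusted p = 0.091). Cxcr6, of tissue T cells, did not pass either (-0.93 ± 0.55, adjusted p = 0.15). With the slide as a block both were called (adjusted p = 0.031 and 0.035). Of 12 integrin chains 4 were higher (Itgb5, Itgax, Itga5 and Itgav) and 4 lower (Itgb1, Itga4, Itgal and Itgb2). Itga4, which pairs with Itgb7 for gut entry, was 3.81, 2.92, 4.44 and 1.94 on small intestine, 4.23 to 5.37 on lung and at least 4.84 at liver and blood (-1.12 ± 0.27, adjusted p = 0.0057, 0.04 over all 20). Small intestine was below lung by -1.65 ± 0.38 (adjusted p = 0.024). Itgb7 lay at 5.89 to 7.69 against 6.73 to 7.47 (-0.17 ± 0.22, adjusted p = 0.51). Itgb1 was lower by -1.35 ± 0.33 (adjusted p = 0.0068, 0.053 over all 20), Itgb5, of epithelial and stromal cells, higher by 1.47 ± 0.46 (adjusted p = 0.016) and Itgax, the CD11c chain of dendritic cells and alveolar macrophages, higher by 1.45 ± 0.31 (adjusted p = 0.0033, 0.026 over all 20). Itgae, the CD103 chain of epithelial T cells, had no probe that passed the filter. Of 12 genes for selectin ligands 5 were lower (41.7%, near the background) and 1 higher, among them Fut7, the fucosyltransferase that completes them (-0.90 ± 0.21, adjusted p = 0.0058, and -1.92 ± 0.30 in small intestine against lung, adjusted p = 0.0019), B4galt5 (-0.88 ± 0.18, adjusted p = 0.0026) and St3gal6 (-1.29 ± 0.41, adjusted p = 0.018).

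Cytotoxic genes gave 4 lower and 0 higher of 9, a share near that of all genes, with a median of -0.47. Prf1, the pore-forming perforin, was -0.10, -0.49, -0.11, -2.24 and -2.28 on lung 1 to 5, -1.36, -2.41, -0.76 and -2.47 on small intestine 1 to 4, 0.12, -1.45, 0.56 and -0.38 on liver 1 to 4 and 0.32, 0.32, 1.76, 1.20 and -0.30 on blood 1 to 5. It was well above background on 2 of 9 mucosal and 8 of 9 other arrays and lower by -1.58 ± 0.40 (adjusted p = 0.0079, 0.033 over all 20). Gzmb, granzyme B, was bright everywhere, at 3.24 to 6.20 against 4.80 to 6.49 (-1.10 ± 0.42, adjusted p = 0.035, 0.082 over all 20). Serpinb9, the inhibitor that shields the cell from its own granzyme B, was lower by -1.97 ± 0.62 (adjusted p = 0.017, 0.065 over all 20). Ifng lay at 2.53 to 5.77 against 2.69 to 5.31 and did not pass (0.37 ± 0.42, adjusted p = 0.45), whereas Tnf was called higher (0.69 ± 0.26, adjusted p = 0.034, 0.085 over all 20). The call of Tnf was kept in 9 of 18 alternative settings, not with quantile normalization (adjusted p = 0.071), and on leaving out 9 of the 18 arrays in turn.

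The identity list had 7 lower and 0 higher of 18, also near the background, with a median of -0.62. Cd8b1, the beta chain of CD8, was 4.37, 3.31, 3.83, 2.44 and 3.19 on lung 1 to 5, 3.11, 1.82, 4.20 and 0.81 on small intestine 1 to 4 and 3.84 to 4.86 at liver and blood (-1.50 ± 0.36, adjusted p = 0.0058, 0.034 over all 20). Cd8a was lower by -0.98 ± 0.31 (adjusted p = 0.018, 0.06 over all 20) and on small intestine 3, at 4.96, as bright as on the other side. Cd6 was lower by -0.88 ± 0.37 (adjusted p = 0.05, 0.085 over all 20), and Cd3e did not pass (-0.43 ± 0.22, adjusted p = 0.095). Inhibitory receptors gave 4 lower (36.4%) and 2 higher (18.2%) of 11, near the background. Btla (-1.91 ± 0.50, adjusted p = 0.0089), Tigit (-1.39 ± 0.45, adjusted p = 0.018) and Lag3 (-1.09 ± 0.33, adjusted p = 0.015, 0.046 over all 20) were lower. The calls of Btla and Tigit were lost over all 20 arrays. Among 22 transcription factors of effector and memory fate 6 were lower (27.3%) and 1 higher (4.55%), both below the shares of all genes. Irf4, induced by receptor signalling, was 2.05, 2.13, 2.31, 0.35 and 1.05 on lung and 0.02, -1.40, -0.83 and -1.64 on small intestine, against -0.07 to 3.47 at liver and blood (-1.75 ± 0.41, adjusted p = 0.0053, 0.052 over all 20). Small intestine lay below lung by -2.54 ± 0.58 (adjusted p = 0.024). Tox, a factor of sustained stimulation, was lower by -1.31 ± 0.28 (adjusted p = 0.0033, 0.033 over all 20). Of 22 cytokine receptor and SOCS genes the same numbers were lower and higher. Il2rg, the shared chain of the receptors for interleukins 2, 7 and 15, fell by 2.24 ± 0.49 (adjusted p = 0.0039, 0.029 over all 20), and Il1rl1, the receptor for interleukin 33, by 1.28 ± 0.47 (adjusted p = 0.03).

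**Figure D2:**
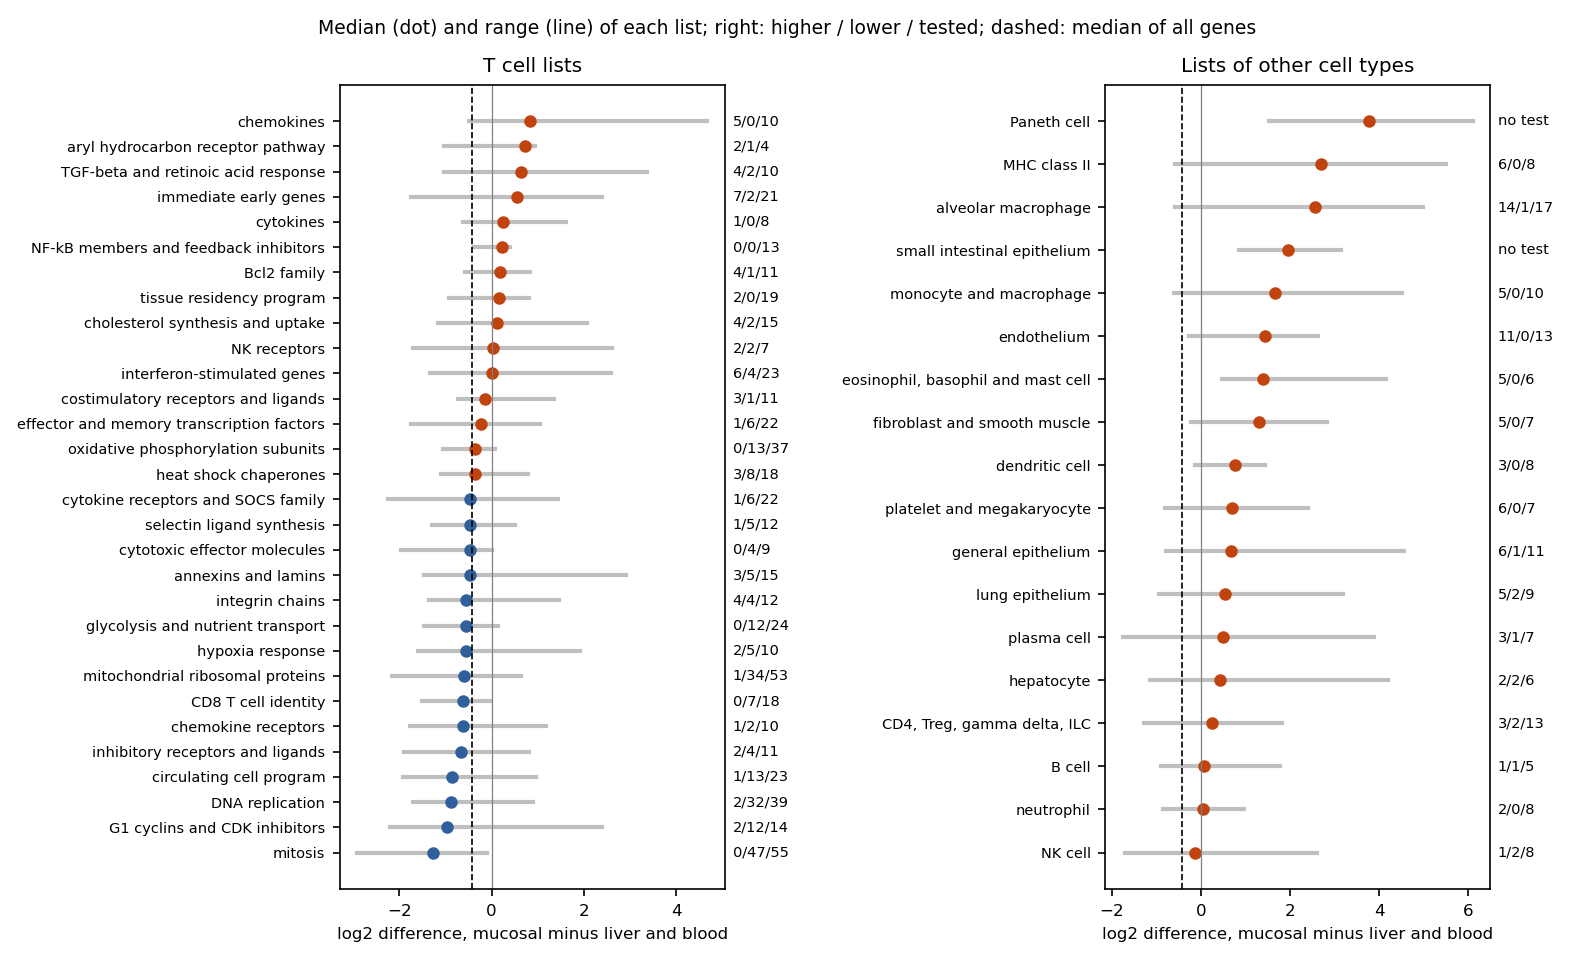
Median (dot) and range (grey line) of the log2 difference, mucosal minus liver and blood (x axis), over the tested genes of each list with at least 4 of them (y axis); numbers at the right are genes higher, lower and tested, and the dashed line is the median of all genes at -0.43. Mitosis, G1 and replication genes stand at the bottom of the T cell lists, at -1.26, -0.97 and -0.88, and no test is given for the Paneth and small intestinal epithelium lists.

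Immediate early genes, which respond within minutes to signals and also to tissue dissociation, had their lowest level in blood. The level of the list was 1.52 ± 0.54 (SD, n = 5) on blood, 2.45 ± 0.24 (n = 4) on liver, 2.53 ± 0.56 (n = 5) on lung and 2.36 ± 0.68 (n = 4) on small intestine. Over its genes the median of lung minus blood was 0.69 and that of small intestine minus blood 0.67, with 0.12 for each minus liver. Against both together 7 of 21 tested (33.3%) were higher and 2 (9.52%) lower, against 19.3% and 38.4% of all genes. The median was 0.56, and 3 were higher over all 20 arrays. Fos was 3.94, 4.55, 1.52, 3.27 and 3.02 on lung 1 to 5, 3.17, 4.03, 1.91 and 1.16 on small intestine 1 to 4, 1.94, 2.88, 2.77 and 1.01 on liver 1 to 4 and 1.35, 1.60, -2.86, -3.59 and -2.07 on blood 1 to 5. The difference was 2.40 ± 0.68 (adjusted p = 0.012, 0.03 over all 20), and the low values were those of blood 3 to 5. Against liver alone it was 0.76 and the call was lost (adjusted p = 0.46). Fosb behaved alike (2.20 ± 0.83, adjusted p = 0.034, 0.054 over all 20) with blood 4 and 5 at -2.27 and -2.75, and Jun was higher by 1.09 ± 0.26 (adjusted p = 0.0058, 0.026 over all 20). Against liver alone neither passed (adjusted p = 0.42 and 0.11). Dusp1, a phosphatase that ends MAP kinase signals, was higher by 0.90 ± 0.33 (adjusted p = 0.028, 0.038 over all 20), but against liver alone the difference was -0.12. Nr4a1, a reporter of receptor signalling, did not pass (0.64 ± 0.31, adjusted p = 0.08, and 0.041 with the slide as a block), nor did Cd69, the early activation marker that holds cells in tissue (0.65 ± 0.55, adjusted p = 0.30). Samples from blood and from organs differ in how cells are freed, and the part of dissociation was not tested.

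Chemokine genes gave 5 higher (50%) and 0 lower of 10, against 19.3% and 38.4% of all genes, with a median of 0.84. Ccl6 was 4.84, 5.02, 7.44 and 6.50 on lung 1, 2, 4 and 5, 4.42, 4.73 and 2.53 on small intestine 1, 2 and 4, -2.03 on lung 3, -1.53 on small intestine 3 and -3.53 to 1.85 at liver and blood. The difference was 4.68 ± 1.19 (adjusted p = 0.0078, 0.027 over all 20), and lung 3 and small intestine 3 were the low mucosal arrays. Ccl9 differed by 2.94 ± 0.78 (adjusted p = 0.009). Cxcl10, an interferon-induced ligand of Cxcr3, was called higher by 1.90 ± 0.61 (adjusted p = 0.018, 0.043 over all 20). Its site means were -1.56 on blood, 1.39 on liver, 0.90 on lung and 2.74 on small intestine, and against liver alone the difference was 0.43 (adjusted p = 0.65). Cxcl2, a neutrophil attractant, was at least 1.53-fold higher. Dhrs3, an enzyme of retinoid metabolism, was 2.66, 2.78, 0.11, 4.96 and 3.72 on lung and 2.77, 3.28, 2.43 and 0.75 on small intestine, against -0.89 to 1.13 (2.41 ± 0.50, adjusted p = 0.0031, 0.026 over all 20). Tgfbi, induced by TGF-beta, differed by 3.37 ± 0.81 (adjusted p = 0.0062) and was low on lung 3 and small intestine 3, at -0.87 and -1.47. Of 23 interferon-stimulated genes 6 were higher (26.1%) and 4 lower (17.4%), against 19.3% and 38.4% of all genes. Gbp6 (2.59 ± 0.61, adjusted p = 0.0056) and Gbp2 (1.39 ± 0.50, adjusted p = 0.027), guanylate-binding proteins of host defence, were higher and Xaf1 was lower (-1.34 ± 0.36, adjusted p = 0.0097). Cd83, a surface protein of activated cells, was 5.35, 6.11, 4.87 and 3.65 on small intestine and 4.69, 5.53, 1.71 and 4.81 on liver, against 0.46 to 4.35 on lung and 0.05 to 1.96 on blood. It was called higher (1.35 ± 0.55, adjusted p = 0.044) although liver was as bright as small intestine, and it was -0.30 against liver alone. Lmna, the nuclear lamin of stiff and tissue-entering cells, was 3.52, 4.30, 1.35, 3.57 and 3.82 on lung, 3.19, 3.67, 0.76 and 3.02 on small intestine and -1.81 to 1.23 at liver and blood (2.91 ± 0.48, adjusted p = 9e-04, 0.026 over all 20). Anxa4 (2.17 ± 0.58, adjusted p = 0.0092) and Anxa1 (1.59 ± 0.55, adjusted p = 0.023), membrane-binding annexins, were higher too, Anxa1 mainly on lung. Klra1 and Klra7, NK receptors of a family with near-identical copies, went opposite ways (1.97 ± 0.57 and -1.70 ± 0.33, adjusted p = 0.013 and 0.0023).

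Mitochondrial ribosomal proteins, of the machinery that translates mitochondrial messages, gave 34 lower (64.2%, against 38.4% of all genes) and 1 higher of 53, with a median of -0.59 and 17 lower over all 20 arrays. Mrps9 ran from -2.52 to -0.01 against -0.11 to 1.12 (-2.17 ± 0.32, adjusted p = 0.00043, 0.026 over all 20) and Mrpl10 was lower by -1.51 ± 0.31 (adjusted p = 0.003). Glycolysis and nutrient transport genes gave 12 lower (50%) and 0 higher of 24, with a median of -0.56. Slc2a3, a glucose transporter, was lower by -1.47 ± 0.38 (adjusted p = 0.0081, 0.044 over all 20). Pfkl, a phosphofructokinase subunit, was lower by -1.29 ± 0.34 (adjusted p = 0.0092, 0.026 over all 20), and Pfkm, another, was well above background on 0 of 9 mucosal and 6 of 9 other arrays, a bound of at least 1.16-fold. Subunits of oxidative phosphorylation gave 13 lower of 37 (35.1%), below the 38.4% of all genes, with a median of -0.36 against -0.43. Ndufs1, of complex I, was lower by -1.06 ± 0.23 (adjusted p = 0.0041, 0.026 over all 20), Sdha, of complex II, by -0.85 ± 0.26 (adjusted p = 0.016) and Atp5d, of the ATP synthase, by -0.76 ± 0.23 (adjusted p = 0.015). Chaperones gave 8 lower (44.4%) and 3 higher (16.7%) of 18, with Hsf1, the heat shock factor (-1.10 ± 0.41, adjusted p = 0.033), and Hspa4l (-0.98 ± 0.21, adjusted p = 0.0039) lower. Of 15 cholesterol genes 4 were higher (26.7%) and 2 lower (13.3%), against 19.3% and 38.4% of all genes. Acaca, which starts fatty acid synthesis, was lower (-1.17 ± 0.39, adjusted p = 0.02). Ankrd37, a target of hypoxia-inducible factor, was lower on all 9 mucosal arrays than on any other, at -2.17 to 1.09 against 1.21 to 2.25 (-1.59 ± 0.36, adjusted p = 0.0048). Hif1a was lower by -0.98 ± 0.39 (adjusted p = 0.04), and Pfkfb4, another hypoxia target, was called higher (1.92 ± 0.76, adjusted p = 0.039). The call of Pfkfb4 was kept in 7 of 18 alternative settings and on leaving out 8 of the 18 arrays in turn, and within slides its difference was 3.58, 2.98, -2.32 and 1.91.

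A large set of small increases ran together with array brightness. Bok, a Bcl2 family member, was higher by 0.67 ± 0.23 (adjusted p = 0.024, 0.11 over all 20), at 4.95 to 6.56 against 4.36 to 5.64. Across the 18 arrays 734 genes had a correlation above 0.90 with Bok, of which 703 were called higher, 44.2% of all higher calls, with differences between 0.29 and 1.33. They include Bax (0.62 ± 0.23), Bcl2 (0.83 ± 0.30), Ctla4 (0.82 ± 0.29), Nr4a2 (0.69 ± 0.26), Xcr1 (0.84 ± 0.28), Ahrr (0.94 ± 0.27), Nsdhl (0.97 ± 0.32), Cxcr2 (0.85 ± 0.25) and Treml1 (1.09 ± 0.38), and also genes of other tissues such as the odorant receptor Olfr860, the vomeronasal receptor Vmn1r41 and the neuronal glutamate receptor Gria2 (each with a correlation of 0.99 with Bok). Bok was chosen after its values were seen, and arrays share slide and scaling, so no p is given. Of 61 tested odorant, vomeronasal and taste receptor genes, which T cells are not known to use, 39 were called higher and 0 lower. Of all genes 19.3% were higher and 38.4% lower. The scaled level of Bok correlated at -0.81 with the log2 75th percentile signal of the array, and at -0.77 within sites. Over all 20 arrays 13 of the 734 were called. The part of array brightness in these calls was not tested, and the higher counts of the Bcl2 family (4 of 11), the tissue residency program (2 of 19), the aryl hydrocarbon receptor pathway (2 of 4), DNA replication (2 of 39), circulating cells (1 of 23), chemokine receptors (1 of 10) and transcription factors (1 of 22) consist of such genes. Another probe of Nr4a2 gave -0.64, against 0.69 for the probe used. Several genes called lower ran against Bok, with correlations of -0.87 for Pfkl, -0.85 for Il2rg, -0.84 for Atp5d, -0.81 for Ndufs1 and -0.80 for Mrpl10. The correlation was weaker for others, as for Cdca2 (-0.47), Ccnb1 (-0.45) and Depdc1b (-0.38). The part of array brightness in the lower calls was not tested either.

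**Figure D3:**
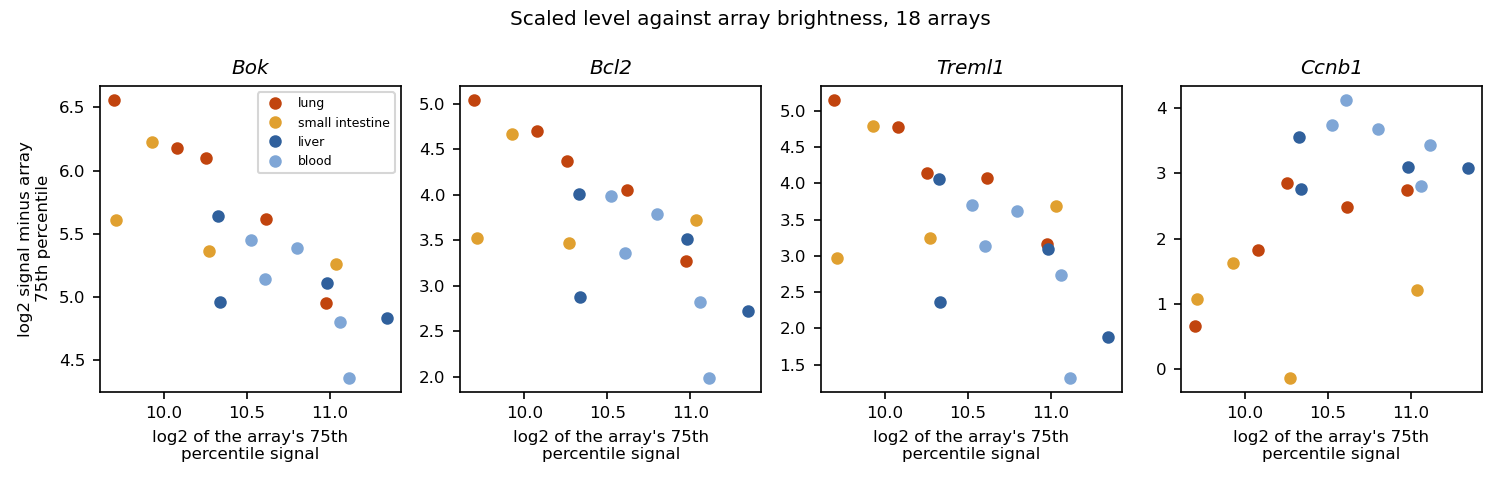
Scaled log2 level (y axis) of Bok, Bcl2, Treml1 and Ccnb1 against the log2 75th percentile signal of the array (x axis) on the 18 arrays, coloured by site. Bok, Bcl2 and Treml1 fall from dim to bright arrays whatever the site, and Ccnb1, whose correlation with brightness is 0.52 over the 18 arrays and 0.21 within sites, is lowest on small intestine 2.

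Few genes separated all 9 mucosal arrays from all 9 others with a size of at least 1. Sftpc was among them, but 5 of its mucosal arrays were not well above background. The other increases were Cavin1, a caveolar coat protein of endothelium and muscle (0.60 to 2.93 against -0.49 to 0.30, 1.42 ± 0.29, adjusted p = 0.0027, 0.028 over all 20), Rab15, a trafficking GTPase (-0.31 to 2.54 against -1.28 to -0.42, 1.36 ± 0.28, adjusted p = 0.0027), and Dgat2, which makes triglyceride (-0.05 to 1.48 against -1.09 to -0.18, 1.21 ± 0.19, adjusted p = 0.00081). Rab15 stood higher in small intestine than in lung by 1.52 ± 0.39 (adjusted p = 0.046), at 0.71, 2.54, 0.03 and 2.25. The 10 largest decreases were Stil, Depdc1b and Tlr1 above and 7 more. Mettl18, a histidine methyltransferase of a ribosomal protein, ran from -2.66 to 0.57 against 0.64 to 2.40 (-2.21 ± 0.40, adjusted p = 0.0015, 0.026 over all 20), and its other probe gave -2.59. Mrnip, a DNA repair protein, lay at -2.52 to -0.46 against 0.01 to 1.27 (-2.14 ± 0.28, adjusted p = 0.00021), and Tstd2 at -2.48 to -0.13 against 0.01 to 1.47 (-1.94 ± 0.31, adjusted p = 0.00079). Tbc1d14, a regulator of autophagy, differed by -1.87 ± 0.33 (adjusted p = 0.0014), Twf2, an actin-binding twinfilin, by -1.77 ± 0.25 (adjusted p = 0.00031), Nelfa, a subunit of the complex that pauses RNA polymerase II, by -1.66 ± 0.41 (adjusted p = 0.0071) and Asxl1, a Polycomb cofactor, by -1.62 ± 0.23 (adjusted p = 0.00031). All 7 stayed called over all 20 arrays, at 0.026 to 0.029. Since full separation chose these genes, their sign within each slide was fixed and is not given as a result.

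Some named genes that were lower on the mucosal side were also lower in small intestine than in lung. Of the 213 genes called between small intestine and lung in either direction, 118 were lower and 51 higher on the mucosal side. Over all genes 38.4% were lower and 19.3% higher. Named genes lower in both comparisons were Cdca2 (-2.47 ± 0.43, adjusted p = 0.004), Depdc1b (-1.80 ± 0.25, adjusted p = 0.00036), Cdkn2c (-2.07 ± 0.53, adjusted p = 0.046), Ccne1 (-2.22 ± 0.52, adjusted p = 0.028), Hspa4l (-1.28 ± 0.30, adjusted p = 0.03), B4galt5 (-1.11 ± 0.25, adjusted p = 0.024), Twf2 (-1.36 ± 0.35, adjusted p = 0.047) and Itga4, Il18r1, Irf4, Ccr10 and Fut7 above. For most other cycle genes the difference between the mucosal sites did not pass, as for Foxm1 (-1.46 ± 0.54, adjusted p = 0.21) and Ccnb1 (-1.17 ± 0.43, adjusted p = 0.20). Of the 55 mitosis genes 5 were called between the sites, against 2.58% of all genes. Stil was at background on every array of both mucosal sites, so its difference of -0.14 cannot show whether they differ.

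**Figure D4:**
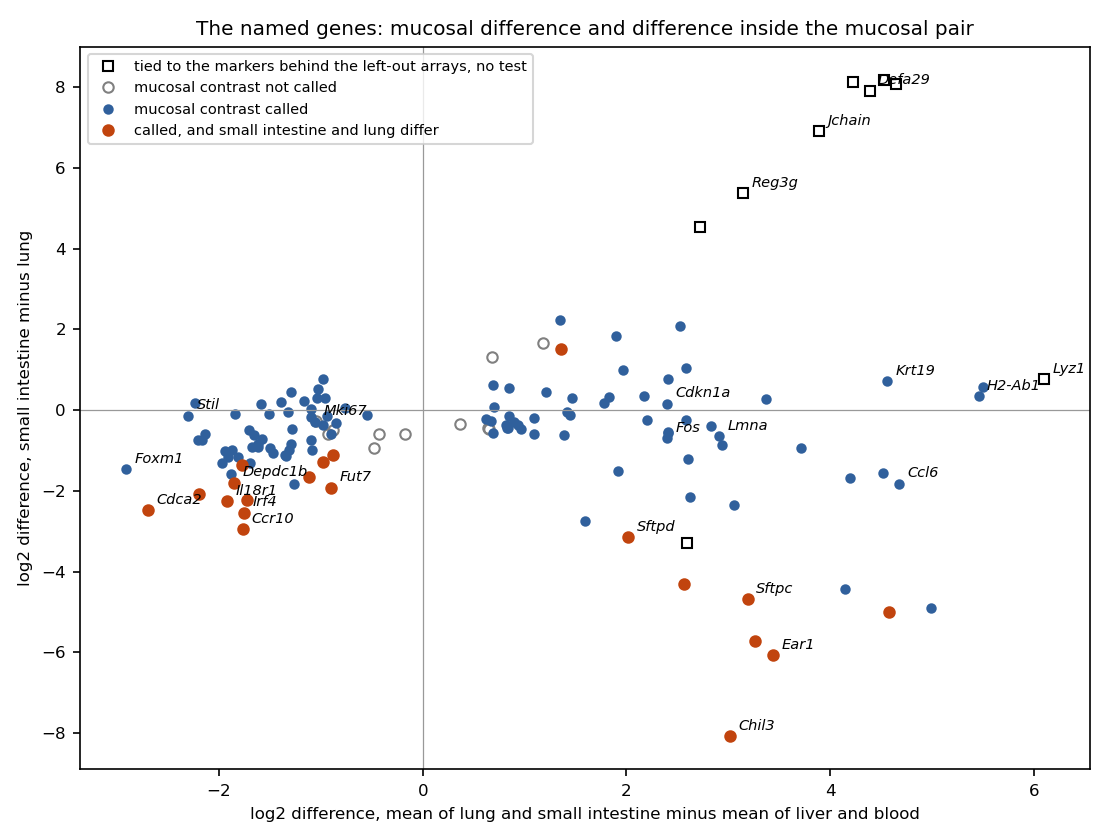
Log2 difference of the mucosal mean minus the mean of liver and blood (x axis) against small intestine minus lung (y axis) for 142 genes named by the rule; orange points passed both tests, blue points the mucosal test alone, open circles did not pass the mucosal test, and squares are genes tied to the markers behind the left-out arrays. Chil3, Ear1 and Sftpc lie far below 0 on the y axis, Defa29 and Jchain far above, and Foxm1 lies at -1.46 and Stil at -0.14.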

How the data were processed

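One-colour Agilent mouse arrays were read with Feature Extraction (version 11.0.1.1 per the file headers, 10.7 in the submitters' processing notes, which also name Partek). The deposited intensity used was the processed signal, background-subtracted per the file headers. The authors' deposited value table is log2 and differed from quantile-normalized log2 processed signals by a median of 6.31e-05, so it served as an alternative. Control and non-uniform spots were dropped, spots of 1 probe averaged, and log2 signals set to each array's 75th percentile. Of 39429 probes, 27508 carry 1 gene symbol and 11921 none. The brightest probe stood for a gene, and 8243 genes well above background on at least 3 of 4 or 4 of 5 arrays of a site were tested.

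A limma model (version 3.58.1, R 4.3.3) with 1 coefficient per site (14 residual degrees of freedom) gave the contrasts, two-sided, with Benjamini-Hochberg adjustment over all genes tested and a threshold of 0.05. The fit was tested on simulated data. Named genes were the 10 largest changes in each direction with full separation and a size of at least 1, up to 3 called members per T cell list and 2 per other-cell list, 24 fixed genes, and the 5 largest differences in each direction inside each pair of sites. Some of these genes are not reported here. The 30 T cell lists and 20 lists of other cells, and the arrays compared, were chosen with earlier results of these data known. Bok and its correlated genes were chosen after their values were seen. Precision is limited by the number of arrays. Alternatives changed the scaling, background correction, filter, probe rule, variance model, block, arrays and reference.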

Additional observations from a re-analysis of the deposited data

Results flagged for a closer look

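In 31 of 764 groups of 4 or 5 arrays (4.1%) the highest or lowest array stood apart from the rest of its site by more than the 95% value of Dixon's ratio, where chance gives about 1 in 20. The ratio is the gap to the nearest array divided by the range. Lung 3 was the low array for Ccl6 (0.725), Lmna (0.736), Ear2 (0.744), H2-Ab1 (0.724), Chil3 (0.828) and the chemokine list (0.764). Lung 4 was low for Depdc1b (0.771), Cd8a (0.719), Acaca (0.843) and Ankrd37 (0.840). Lung 5 stood apart for Dgat2 (0.717) and lung 1 for Pigr (0.723). Among liver arrays liver 2 stood apart for Hspa4l (0.975), Klra7 (0.853), H2-Ab1 (0.866), general epithelium (0.877) and MHC class II (0.852). Liver 3 stood apart for Tnf (0.837), Gbp6 (0.852), Pigr (0.900) and Dusp1 (0.886), and liver 4 for Cd8a (0.909), Anxa4 (0.909), chemokines (0.873) and endothelium (0.883). Blood 5 stood apart for Hspa4l (0.901) and Lmna (0.739). In small intestine the arrays were replicate 1 for Ccr10 (0.875), replicate 3 for Ccne1 (0.886) and replicate 4 for Nsdhl (0.853) and Klf2 (0.847).

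For 17 of the 142 named genes the effect in small intestine was flagged as unlike that in lung, those named for that difference left aside. Values are small intestine minus lung on the log2 scale. The effect was lower in small intestine for Depdc1b (-1.8), Twf2 (-1.36), Irf4 (-2.54), Il18r1 (-2.25), Ccr10 (-2.94), Fut7 (-1.92), B4galt5 (-1.11), Cdca2 (-2.47), Cdkn2c (-2.07), Ccne1 (-2.22), Hspa4l (-1.28), Ear10 (-5.01) and Itga4 (-1.65), and higher for Rab15 (1.52), all tested with limma in the fit over all genes. The differences of Reg3g (5.37) and Tff3 (4.54) are given without a test, since these genes are tied to the markers behind the arrays left out. That of Sftpd (-3.14) is given without a test too, since it was at background on every small intestine array.

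Outside the comparison, the Paneth cell list had a level of 2.04 on the array labelled liver 5, where the highest other liver array had -1.89.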

How the results depend on the processing

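Against 1592 higher and 3163 lower genes, all 20 arrays as labelled gave 244 and 1715, and these arrays scaled on probes well above background on all 20 gave 0 and 1 (chosen after seeing the data, with 3920 genes at an unadjusted p under 0.05). Median scaling gave 216 higher and no scaling 168 (added later), the share of calls that were higher being 4.8% and 3.4% against 33.5%. Quantile normalization gave 42.0%. A filter that kept the probes above background on every one of the 18 arrays gave 939 and 1863, and liver alone as the reference (added later) 160 and 913. Leaving out 1 array gave 1196 (without liver 2) to 2007 (without small intestine 3) higher and 2331 (without small intestine 4) to 4002 (without small intestine 3) lower genes. The 213 genes between small intestine and lung became 12 with all 20 arrays, 20 with these also rescaled, 121 scaled on probes well above background on all 18 arrays, 77 with median scaling, 48 with none, 89 with normexp, 79 and 125 with the stricter filters, 139 with no filter and 489 with array weights. Leaving out 1 array gave 97 (without lung 5) to 692 (without small intestine 3), with 99 without small intestine 2 and 119 without lung 1. Between liver and blood the count of 0 became 3 with array weights and 0 to 4 on leaving out 1 array (4 without liver 3). Cd83 (-0.30) and Dusp1 (-0.12) reversed against liver alone. Lower calls lost against liver alone include S1pr1, Tcf7, Cxcr3, Itga4, Prf1, Serpinb9, Gzmb, Cd8a, Btla, Tigit, Lag3, Slc2a3 and Pfkl. Those of Il18r1, Irf4, Ccr10, Cd8b1, Tox and Il2rg were kept there. Among named genes, leaving out at least 1 array in turn ended the calls of Cd6, Fosb, Ctla4, Nr4a2, Gzmb, Tnf, Cd83, Tnfrsf1b, Smad3, Arnt, Gbp2, Il1rl1, Tcf7, Nsdhl, Pfkfb4, Hif1a, Hsf1, Bcl2, Bok, Bax, Treml1, Dusp1 and Chil3. The cause of these changes was not tested. Replicate numbers equal slide numbers, and deviations of same-numbered arrays correlated from -0.34 to 0.50 or 0.51 at most, not above 0.1 in every pair. The block added the calls of Mki67 (adjusted p = 0.0042), Nr4a1 (0.041), Ccr9 (0.031) and Cxcr6 (0.035) and ended that of Pfkfb4 (0.055). With the replicate block 1633 genes were higher and 3502 lower, and 3 were called between liver and blood, as with the block and the other scaling together (3). Among 495 genes with several probes well above background on all 18 arrays, 77.4% had the same sign on all of them and 4.8% had opposite calls.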
